A study of Homo sapiens with 34 samples.

Results

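The genes of 8 intestinal lineage transcription factors (CDX1, CDX2, HNF4A, HNF4G, GATA5, GATA6, FOXA1 and FOXA2) were followed through the chromatin of DLD1 colorectal cancer cells. They were taken by name, and they are 8 of the 19974 protein-coding genes placed on chromosomes 1 to 22 and X in RefSeq for GRCh38. Every deposited region and summit that lay in a gene or within 50 kb of either end was taken, whatever its strength. That gave 84 H3K27ac regions with 262 summits in induced cells and 74 regions with 263 summits in uninduced cells. For RNA polymerase II (Pol II) it gave 75 regions with 154 summits in induced cells and 64 regions with 153 summits in uninduced cells. The whole lists held 79987 H3K27ac regions in induced cells and 78005 in uninduced cells, and 50665 Pol II regions in induced cells and 57247 in uninduced cells. No region lay within reach of 2 of the 8 genes.

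The induced group was DLD1 (DNTCF) cells given 1 µg/mL doxycycline for 24 h, which switches on a transgene for dominant negative TCF7L2, and the uninduced group was the same line without doxycycline. TCF7L2 is the main partner through which β-catenin, the effector of Wnt signalling, reaches DNA in gut epithelium. A dominant negative form occupies TCF sites without passing on the β-catenin signal. Both groups carry the transgene and were grown with the same selection drugs, zeocin and blasticidin. All values come from 1 colorectal adenocarcinoma line with 1 construct. The labels do not say whether the line is a single clone, and cells without the transgene were not analysed here. The study examined 2 chromatin samples per antibody and condition by chromatin immunoprecipitation and sequencing (ChIP-seq), but the labels tie 1 peak list to both, so no value here has a replicate spread and no difference between conditions could be tested. The 24 RNA-seq samples of the series were not analysed here.

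H3K27ac is an acetyl mark on histone H3 found at active promoters and enhancers, and Pol II is the enzyme that transcribes protein-coding genes. The factors encoded by the 8 genes bind DNA in 4 related pairs. CDX1 and CDX2 are homeobox factors that set and keep intestinal identity. HNF4A and HNF4G are nuclear receptors that drive the enterocyte programme, and both have many target genes in absorptive cells. GATA5 and GATA6 are zinc-finger factors of endoderm, and FOXA1 and FOXA2 are forkhead factors that can bind closed chromatin early in gut development. Many enhancers of gut epithelium are bound by several of these factors together, and genes of this kind often lie in unusually wide stretches of H3K27ac.

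The start sites of 4 of the genes could be matched to RefSeq promoter sequence (GRCh38.p14), HNF4A with both of its known promoters. They are shown because the HNF4A promoters differed in the data, the distal one (P2) carrying both marks and the proximal one (P1) neither, and because CDX2 alone held any of the factor motifs searched. Each sequence is the 250 bases that precede the start, written 5′ to 3′ on the strand of the gene. Capitals mark motif matches. The positions are chr13:27969316-27969565 (minus strand) for CDX2, chr20:44355449-44355698 (plus strand) for HNF4A P2 and chr20:44400989-44401238 (plus strand) for HNF4A P1. They are chr18:22169339-22169588 (plus strand) for GATA6 and chr14:37595250-37595499 (minus strand) for FOXA1.
CDX2: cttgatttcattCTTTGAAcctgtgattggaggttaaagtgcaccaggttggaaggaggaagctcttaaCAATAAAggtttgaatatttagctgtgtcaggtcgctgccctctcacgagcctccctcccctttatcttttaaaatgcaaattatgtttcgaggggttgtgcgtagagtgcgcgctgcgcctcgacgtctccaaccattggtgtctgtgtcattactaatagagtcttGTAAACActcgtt
HNF4A P2: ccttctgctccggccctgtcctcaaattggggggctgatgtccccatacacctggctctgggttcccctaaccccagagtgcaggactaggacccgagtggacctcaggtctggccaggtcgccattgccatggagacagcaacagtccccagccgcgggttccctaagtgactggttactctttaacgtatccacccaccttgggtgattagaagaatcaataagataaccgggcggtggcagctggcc
HNF4A P1: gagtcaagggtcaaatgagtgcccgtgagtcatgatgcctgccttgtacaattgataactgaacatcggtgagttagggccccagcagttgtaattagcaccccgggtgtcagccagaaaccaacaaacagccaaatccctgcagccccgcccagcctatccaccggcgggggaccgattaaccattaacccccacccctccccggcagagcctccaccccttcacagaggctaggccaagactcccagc
GATA6: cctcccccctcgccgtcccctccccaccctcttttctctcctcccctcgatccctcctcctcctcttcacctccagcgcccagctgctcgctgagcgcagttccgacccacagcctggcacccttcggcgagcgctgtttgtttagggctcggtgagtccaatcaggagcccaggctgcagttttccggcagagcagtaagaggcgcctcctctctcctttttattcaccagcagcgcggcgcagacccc
FOXA1: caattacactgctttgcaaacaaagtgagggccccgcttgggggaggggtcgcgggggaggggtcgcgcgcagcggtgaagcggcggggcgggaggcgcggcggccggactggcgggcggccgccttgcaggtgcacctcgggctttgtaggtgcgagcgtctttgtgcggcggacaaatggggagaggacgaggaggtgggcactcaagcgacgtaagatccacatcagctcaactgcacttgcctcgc

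The motifs searched on both strands were CTTTGAT and CTTTGAA for TCF/LEF factors, TTTATNG for CDX, CAAAGTCC for HNF4, AGATAAG for GATA and TGTTTAC for FOXA. The CDX2 window held CTTTGAA on its own strand from position -238, counting -1 as the base just before the start. On the opposite strand it held a CDX match, read here as CAATAAA from position -181, and a FOXA match, read as GTAAACA from position -13. Among all 22132 promoter windows of protein-coding genes, 3.21% held CTTTGAA, 7.46% held TTTATNG and 2.45% held TGTTTAC. The shares for the other letters were 1.79% for CTTTGAT, 0.949% for CAAAGTCC and 2.04% for AGATAAG, and no match overlapped another in CDX2. These matches describe letters and not bound sites. The CDX2 window was also the least rich in G and C of those shown, at 45.2% against 58.4% for HNF4A P2, 58.0% for HNF4A P1, 64.4% for GATA6 and 67.2% for FOXA1, where the median of all windows was 62%.

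All but 1 of these windows carried both marks in both conditions. The windows of CDX2, HNF4A P2, GATA6 and FOXA1 lay on an H3K27ac region in induced and in uninduced cells, as did 60.5% of all windows in induced cells and 60.6% in uninduced cells. The same windows lay on a Pol II region, as did 58.7% of all windows in induced cells and 60.0% in uninduced cells. The nearest Pol II summit stood close to each start in both lists. For HNF4A P2 it was 6 bp from the start in induced cells and 16 bp in uninduced cells, and for GATA6 it was 32 bp in induced cells and 42 bp in uninduced cells. For CDX2 it was 135 bp in induced cells and 164 bp in uninduced cells, and for FOXA1 it was 140 bp in induced cells and 96 bp in uninduced cells. The nearest H3K27ac summit stood farther off at all 4 starts, 220 to 470 bp away in induced cells and 239 to 469 bp in uninduced cells. Acetylated histones sit on the nucleosomes beside a start.

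The defining markers of intestinal epithelium were mostly marked. Of 9 epithelial markers (EPCAM, CDH1, KRT8, KRT18, KRT20, VIL1, CDH17, LGALS4 and GPA33), 8 had H3K27ac in the gene in induced cells and 9 in uninduced cells, KRT20 being the one without it in induced cells. The share of the gene covered had a median of 21.4% in induced cells and 21.1% in uninduced cells, and the 9 shares summed to 296.8% in induced cells and 307.1% in uninduced cells. Of 10 markers of immune, stromal, endothelial, liver and nerve cells, 6 had H3K27ac in the gene in induced cells and 7 in uninduced cells, with a median share of 8.49% in induced cells and 8.58% in uninduced cells. Their shares summed to 83.0% in induced cells and 66.8% in uninduced cells. Over all genes, 73.9% had H3K27ac in the gene in induced cells and 74.2% in uninduced cells. With 9 and 10 genes, neither marker count is read as a difference from that share. Pol II lay in 8 of the 9 epithelial genes in induced cells and 7 in uninduced cells, with median shares of 3.35% and 5.77%. It was absent from KRT20 in both lists and from LGALS4 in uninduced cells. In the other set it lay in 6 of 10 in both lists, with medians of 0.771% and 1.27%. Over all genes, 70.3% had Pol II in the gene in induced cells and 71.9% in uninduced cells. ALB, APOA2 and COL1A2 had neither mark in the gene in any list. Whether other cells add to the results below was not tested, and a bulk list cannot tell fewer cells with a mark apart from less of it per cell.

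Most regions near the 8 genes were listed in both conditions. Of the H3K27ac regions, 69 of 84 in induced cells (82.1%, Wilson 95% interval 72.6 to 88.9) shared at least 1 bp with an uninduced region, and 66 of 74 in uninduced cells (89.2%, 80.1 to 94.4) shared bases with an induced one. Of the Pol II regions, 67 of 75 in induced cells (89.3%, 80.3 to 94.5) and 53 of 64 in uninduced cells (82.8%, 71.8 to 90.1) had such a partner. The regions without a partner were 15 of 84 and 8 of 74 for H3K27ac in induced and uninduced cells, 17.9% and 10.8%, where the whole lists had 12.3% and 14.5%. For Pol II they were 8 of 75 in induced cells and 11 of 64 in uninduced cells, 10.7% and 17.2%, where the whole lists had 10.8% and 30.4%. The uninduced Pol II share near these genes was thus below that of its list, and its interval did not reach the list's value. Those regions were also stronger than the list, with a median −log10 q of 16.9 against 9.0 over the whole uninduced Pol II list, and the part of this in the lower share was not tested. These intervals treat regions as independent draws, cover counting error only, and take no account of regions that neighbour one another.

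Most regions in 1 list alone were weak, and the 2 strongest were Pol II regions of uninduced cells. Elsewhere the highest −log10 q among unpaired regions was 7.97 for H3K27ac in induced cells, 9.69 for H3K27ac in uninduced cells and 4.66 for Pol II in induced cells, under the members' medians of 38.1, 43.3 and 9.24. The strongest was a Pol II region of 515 bp at 62523691 to 62524205 on chromosome 20, 47.7 kb above GATA5, listed in uninduced cells with a fold enrichment of 8.54 and a −log10 q of 39.6. It lay on H3K27ac, which induced cells also carried there at a fold of 5.75 (62523324 to 62523939), against 4.13 in uninduced cells (62523245 to 62524054). It also overlapped a second H3K27ac region of uninduced cells that had no induced partner (62524140 to 62524791, fold 3.92, −log10 q 6.99). The other strong Pol II region lay at TTPAL beyond HNF4A (44484486 to 44486602, 2117 bp, fold 5.05). Its −log10 q of 11.3 was above the uninduced Pol II list's median of 9.0. Fold enrichment is the peak caller's ratio of ChIP signal to local background at a summit. Fold and −log10 q are each given as the highest among the summits of a region, which need not be the same summit. They differed for uninduced H3K27ac at GATA6, where the summit with the highest −log10 q had a fold of 22.7 and another summit reached 27. A fold is the authors' own value within a list, so values of both conditions are set side by side without a test. Higher H3K27ac folds in induced cells were not particular to the 8 genes. Among the 9 epithelial markers, the highest fold within 50 kb was higher in induced cells at all but CDH17 (32.1 in induced cells, 32.7 in uninduced cells). It was 48.5 and 25.9 at VIL1, and 39.4 and 26.4 at CDH1. No such comparison was computed over all genes, so no higher fold below is read as a gain of the mark.

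The bases covered within 50 kb were close to equal in both conditions for H3K27ac and fewer in induced cells for Pol II. H3K27ac covered 204.1 kb near the 8 genes in induced cells and 199.2 kb in uninduced cells, a ratio of 1.02 where the ratio over the whole lists was 0.971. Pol II covered 95.1 kb in induced cells and 107.9 kb in uninduced cells, a ratio of 0.882 where the lists gave 0.800. None of the 8 genes passed a 1.5-fold difference in either mark, a difference that 5.31% of genes passed for H3K27ac (3.74% lower in induced cells, 1.58% higher) and 17.4% for Pol II (16.9% lower, 0.532% higher). For H3K27ac, 4 genes had fewer covered bases in induced cells and 4 had more, and 55.9% of all genes had fewer. For Pol II, all 8 had fewer, and so had 92.2% of all genes, so the shared direction is that of the list. It turned under other settings for CDX1, at 1.04 with lists of equal length, 1.04 within 100 kb and 1.02 with gaps of up to 1 kb joined, and for GATA6, at 1.11 with gaps joined. The H3K27ac split turned for 5 genes, CDX2 and GATA5 (1.02 and 1.11 within 20 kb), FOXA1 (0.988 within 100 kb), FOXA2 (0.949 at a −log10 q of at least 5, 0.973 within 100 kb) and GATA6 (1.03 with gaps joined, 1.01 within 100 kb).

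The H3K27ac ratios ran between 0.825 at GATA5 and 1.18 at CDX1, inside the middle range of all genes with bases in both lists, 0.741 to 1.22 with a median of 0.987. Pol II ratios stood on both sides of the median of all genes. FOXA1 (0.973), CDX1 (0.962), GATA6 (0.958) and CDX2 (0.917) stood above the all-gene median of 0.829, while HNF4G (0.789), GATA5 (0.742), HNF4A (0.739) and FOXA2 (0.708) stood below it. All 8 lay within the range of 0.532 to 1.04 that holds the middle of all genes. These Pol II ratios include bases nearer to other genes. Where the member was the nearest protein-coding gene, the ratio was 0.788 at CDX1, 0.859 at FOXA1, 0.966 at CDX2 and 0.966 at HNF4A. At GATA5 it was 0.378, past 1.5-fold, on 0.411 kb in induced cells and 1.09 kb in uninduced cells. HNF4G, GATA6 and FOXA2 kept their ratios. No median of all genes was computed under that rule.

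**Figure D1:**
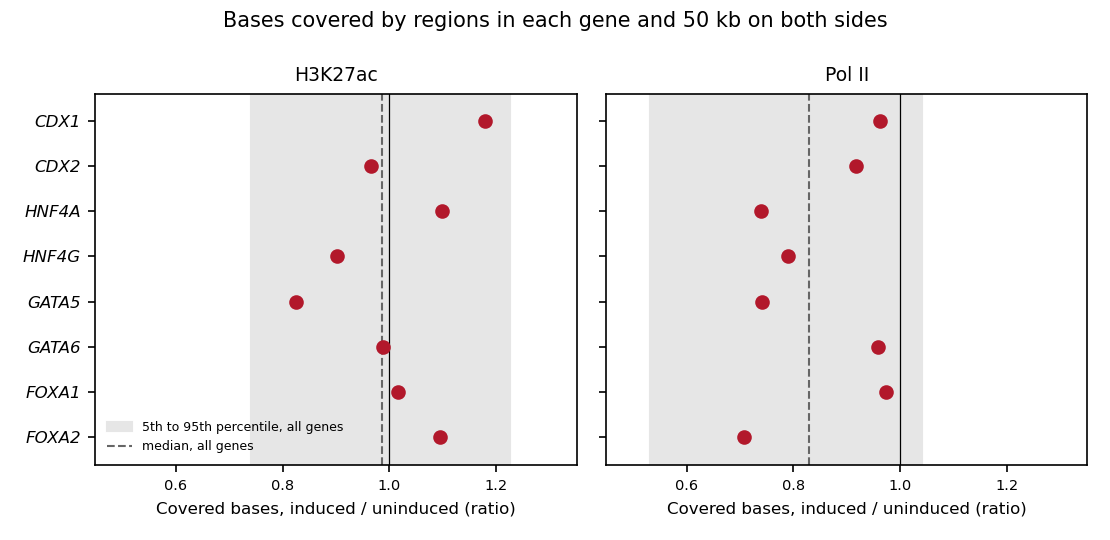
Bases covered by H3K27ac and by Pol II within 50 kb of each gene, as the ratio of induced over uninduced cells on a linear axis. Dots are the 8 genes, the grey band is the range between the 5th and 95th percentile of all protein-coding genes with bases in both lists, and the dashed line is their median. The Pol II dots all lie under 1 but within the band, and the H3K27ac dots lie on both sides of 1.

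CDX2 lay wholly inside 1 wide H3K27ac region in both conditions. CDX2, at 27960918 to 27969315 on chromosome 13, is the homeobox factor most tied to intestinal identity. Its region spanned 17.8 kb in induced cells (27955598 to 27973436, fold 37.4, −log10 q 272.1) and 20.7 kb in uninduced cells (27952539 to 27973205, fold 38.4, −log10 q 321.4). The narrower induced span came with a separate region of 2.85 kb at its lower edge (27952535 to 27955383, fold 33.6), a stretch that the uninduced list counts into the wide region. The non-coding gene LINC00543 (27953526 to 27955363) lies in that stretch. With gaps of up to 1 kb joined, the domain measured 22 kb in induced cells and 22.1 kb in uninduced cells, so the difference in width lay in a single gap.

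Pol II at CDX2 was listed over a narrower stretch around the start in induced cells. The region there spanned 4.57 kb in induced cells (27965385 to 27969951, fold 34.4, −log10 q 214.5) and 6.94 kb in uninduced cells (27965147 to 27972085, fold 38.8, −log10 q 321.7). The stretch beyond the start was listed apart in induced cells (27970301 to 27971862, fold 6.27). At the other end of the gene, Pol II was listed at a fold of 14.6 in induced cells (27958272 to 27962022) and 19.9 in uninduced cells (27956762 to 27961788). Regions of Pol II covered 76.5% of the gene in induced cells and 68.6% in uninduced cells, and H3K27ac covered 100% of it in both.

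The rest of the CDX2 neighbourhood held PDX1, the homeobox gene of pancreas and duodenum, whose lower-coordinate end lay in H3K27ac of 7.52 kb in induced cells (27914878 to 27922398, fold 29.6) and 7.49 kb in uninduced cells (27914848 to 27922333, fold 23.8). Pol II there had its highest fold at 30.8 in induced cells and 21.0 in uninduced cells. An H3K27ac stretch between the genes was a single 2.98 kb region in induced cells (27942096 to 27945075, fold 9.20) and was listed in 2 pieces with folds of 3.12 and 6.27 in uninduced cells. The region above the start (27977978 to 27979264), at the lower end of URAD, had a fold of 13.9 in induced cells and 16.8 in uninduced cells.

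CDX1 differed from CDX2 in having no Pol II in the gene in either list. CDX1, at 150166778 to 150184558 on chromosome 5, encodes the second intestinal CDX factor. H3K27ac covered 15.5% of the gene in induced cells and 13.4% in uninduced cells, all of it toward the upper-coordinate end. The nearest H3K27ac to the lower end stopped short of the gene, at 150164380 to 150165105 in induced cells and 150164416 to 150165232 in uninduced cells, and was weak, with a fold of 3.55 in induced cells and 3.80 in uninduced cells. The next region outward (150160923 to 150164186 in induced cells) was strong, with a fold of 20.9 in induced cells and 18.5 in uninduced cells, and held Pol II at 5.70 in induced cells and 6.64 in uninduced cells.

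The H3K27ac ratio of CDX1, the highest of the 8, was made by regions toward the neighbouring genes. On the SLC6A7 side a region of 4.70 kb in induced cells (150208183 to 150212883, fold 19.2, −log10 q 93.0) faced 2 regions in uninduced cells, with folds of 9.58 and 9.42 and −log10 q of 44.2 and 35.2. Farther up, the region at 150214468 to 150218254 in induced cells had a fold of 16.3, against 9.54 in uninduced cells (150214787 to 150218195). Inside PDGFRB, one of the stromal markers counted above, the region at 150142960 to 150144824 in induced cells had a fold of 22, against 15.7 in uninduced cells (150142239 to 150145080). Just past the upper end of CDX1 the fold ran the other way. It was 15.8 in induced cells (150184621 to 150187734), in a region that began 63 bp outside the gene. In uninduced cells it was 22.4 (150183955 to 150187870), in a region that overlapped the gene end but had its strongest summit outside, at 150186722. Induced cells had a separate weak region on the gene end (150183872 to 150184539, fold 4.13). Where CDX1 was the nearest protein-coding gene, H3K27ac covered 9.86 kb in induced cells and 9.61 kb in uninduced cells. Where another gene was nearer, it covered 17.5 kb in induced cells and 13.6 kb in uninduced cells.

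**Figure D2:**
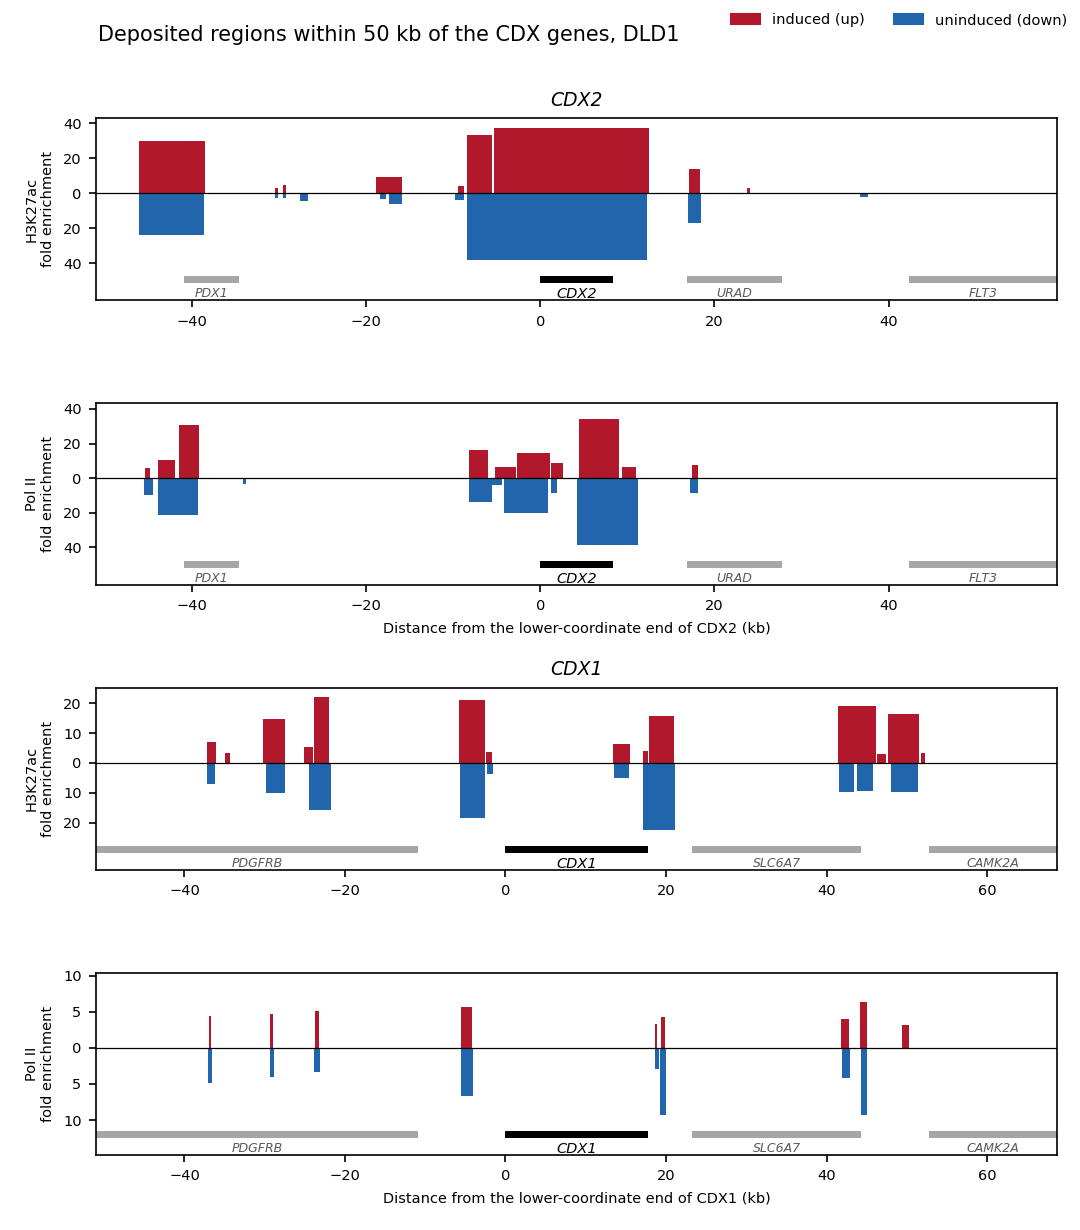
Deposited H3K27ac and Pol II regions around CDX1 and CDX2, with distance from the lower-coordinate end of the gene in kb along the x axis and the highest fold enrichment of each region as the height of its bar. Red bars pointing up are induced cells, blue bars pointing down are uninduced cells, black marks the gene and grey its protein-coding neighbours. CDX2 sits under 1 wide H3K27ac block in both conditions, while CDX1 has no Pol II bar inside the gene.

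HNF4A was marked at its distal promoter and not at its proximal one. HNF4A, at 44355699 to 44434596 on chromosome 20, has 2 promoters that give proteins with different first exons, P2 at 44355699 and P1 at 44401239, of which P1 is known as the one used in adult liver. H3K27ac at P2 spanned 2.95 kb in induced cells (44354150 to 44357102, fold 31.4, −log10 q 236.1) and 2.50 kb in uninduced cells (44354325 to 44356826, fold 23.2, −log10 q 227.4). Pol II at P2 had a fold of 19.8 in induced cells (−log10 q 137.0) and 21.0 in uninduced cells (−log10 q 198.4). The P1 start lay in no region of either mark. The nearest H3K27ac region began shortly past it, with a fold of 6.33 in induced cells (44402163 to 44403545, −log10 q 15.7) and 10.4 in uninduced cells (44401967 to 44403968, −log10 q 42.4).

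Within the HNF4A gene, a strong H3K27ac region lay past P1. Its fold was 22.6 in induced cells (44405340 to 44409433, −log10 q 198.8) and 21.0 in uninduced cells (44405218 to 44409165, −log10 q 197.1), and Pol II stood on it at folds of 11.7 in induced cells and 11.3 in uninduced cells. Another lay between the promoters, at 22.1 in induced cells (44369277 to 44372420) and 14.7 in uninduced cells (44369504 to 44372221). The stretch from 44381314 to 44388952 held 7 H3K27ac regions in induced cells with folds of 3.03 to 10.7, and in uninduced cells it held 2 regions with folds of 10.7 and 3.22. The wider of these 2 (44381350 to 44384171) faced 3 of the induced regions, so part of the contrast in number is splitting. Another 3 induced regions had no partner and were weak, with −log10 q of 3.66, 3.81 and 4.15. At the 3′ end, Pol II had a fold of 5.55 in induced cells (44431238 to 44434482) and 6.72 in uninduced cells (44431176 to 44435442).

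The missing Pol II bases around HNF4A lay mostly at a neighbour. Where HNF4A was the nearest protein-coding gene, Pol II covered 7.38 kb in induced cells and 7.64 kb in uninduced cells. Where another gene was nearer, it covered 5.95 kb in induced cells and 10.4 kb in uninduced cells. Most of that lay at TTPAL, where a region of 6.23 kb in uninduced cells (44475269 to 44481502, fold 58.6) faced 3 regions in induced cells. These spanned 1.99 kb (44475383 to 44477376, fold 41.1), 0.953 kb (44477619 to 44478571, fold 3.49) and 0.507 kb (44479366 to 44479872, fold 2.92). TTPAL also gave the region nearest the inner edge of the 50 kb limit, Pol II in uninduced cells at 44484486 to 44486602, which began 49.9 kb from HNF4A (fold 5.05, −log10 q 11.3). The first one beyond the limit was Pol II in induced cells 50.3 kb from GATA5 (62412641 to 62413158, fold 4.07, −log10 q 5.59).

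HNF4G, the paralogue of HNF4A expressed in intestine, was the least marked of the 8. HNF4G, at 75407649 to 75566834 on chromosome 8, had 1 region per list, and all of them lay at its lower-coordinate end. H3K27ac there had a fold of 16.9 in induced cells (75406826 to 75408825, −log10 q 89.8) and 18.6 in uninduced cells (75406870 to 75409087, −log10 q 102.5). Pol II had a fold of 11.6 in induced cells (75407039 to 75408339, −log10 q 47.8) and 15.6 in uninduced cells (75406992 to 75408640, −log10 q 90.1). The remaining gene body, long as it is, and both flanks held no region of either mark.

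**Figure D3:**
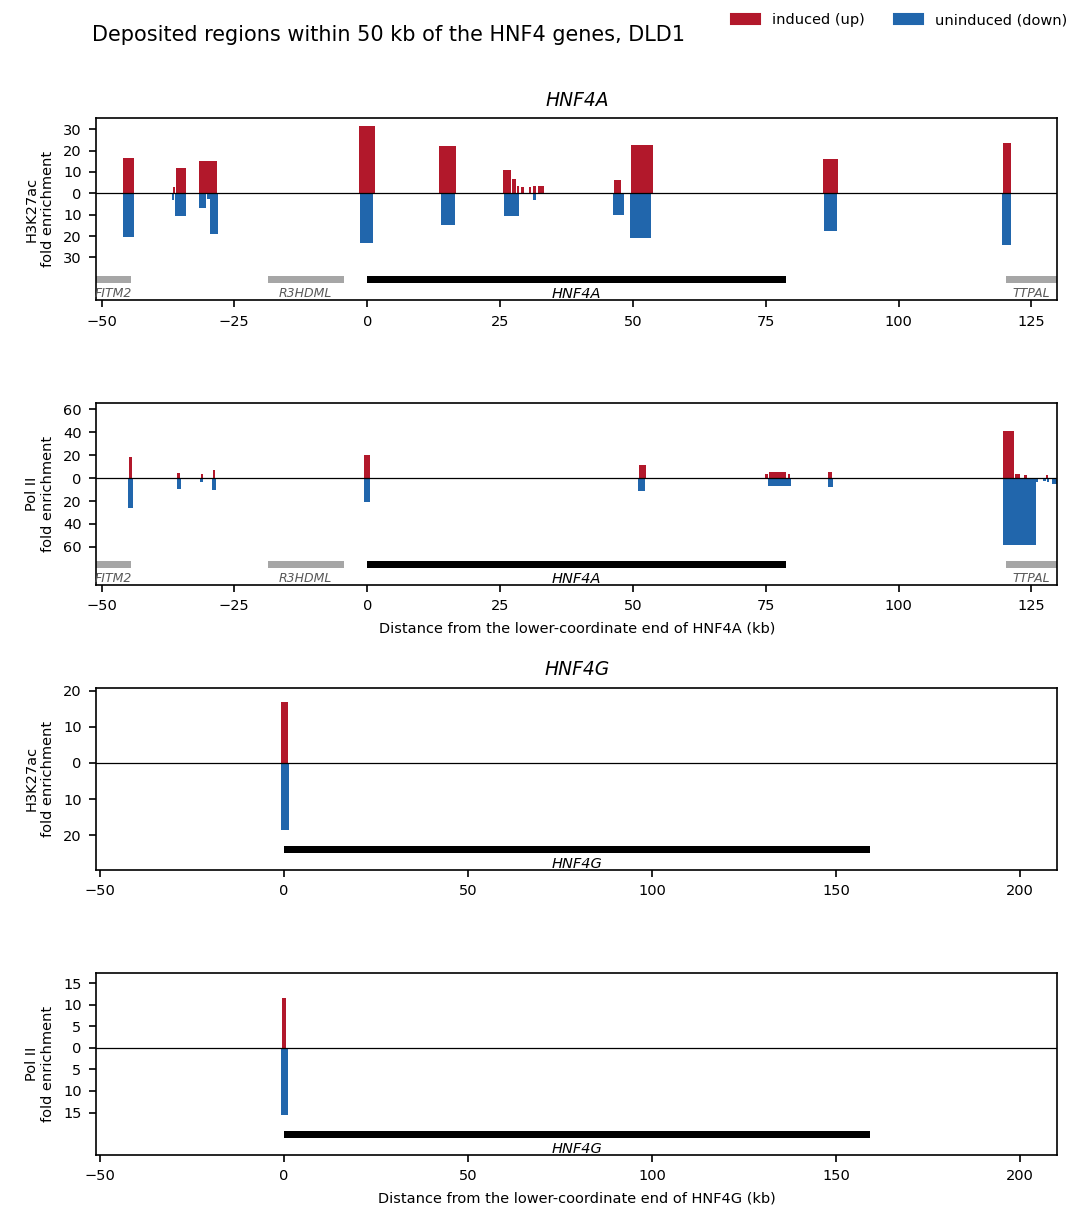
Deposited regions around HNF4A and HNF4G, drawn with distance from the lower-coordinate end of the gene in kb along the x axis and fold enrichment as bar height, induced cells up in red and uninduced cells down in blue. HNF4A shows H3K27ac at its distal start and at several places in the gene, and the tallest Pol II bars stand at TTPAL. HNF4G shows a single place with both marks.

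In induced cells GATA6 had the highest fold over its own gene among the 8, for both marks. GATA6, at 22169589 to 22202528 on chromosome 18, is a GATA factor of gut epithelium. H3K27ac at its start spanned 13.6 kb in induced cells (22165739 to 22179370, fold 44.3, −log10 q 294.9) and 10.2 kb in uninduced cells (22165726 to 22175911, fold 27, −log10 q 241.9). The part of the gene that follows was one region of 5.76 kb in uninduced cells (22176023 to 22181784, fold 25.4), while in induced cells the first region reached into it. The wide block continued through the gene to 33.6 kb in induced cells and 30.7 kb in uninduced cells once gaps of up to 1 kb were joined. As listed, the widest H3K27ac region in the window was 13.6 kb in both conditions, and in uninduced cells it was not the one at the start. H3K27ac covered 83.4% of the gene in induced cells and 80.3% in uninduced cells.

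Pol II at the GATA6 start had a fold of 51.7 in induced cells (22165886 to 22171716, −log10 q 353.4) and 36.7 in uninduced cells (22165810 to 22172831, −log10 q 390.3). The fold was thus the higher and the −log10 q the lower in induced cells. Inside the gene beyond that region, induced cells had 8 short Pol II regions with folds of 2.68 to 4.65 and uninduced cells had 3 with folds of 2.55 to 3.0. Past the 3′ end, where Pol II is known to gather as transcripts end, the region at 22204434 to 22208522 had a fold of 10.1 in induced cells, against 7.83 in uninduced cells (22204447 to 22208542).

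Farther from GATA6, 2 distal H3K27ac regions stood 38.1 and 47.5 kb above the gene in induced cells and 37.8 and 47.4 kb in uninduced cells. The nearer one had a fold of 31.0 in induced cells (22240609 to 22244702) and 21.1 in uninduced cells (22240305 to 22244572). The farther one had a fold of 15.8 in induced cells (22250046 to 22251681) and 16.9 in uninduced cells (22249956 to 22251855). Pol II on these was weaker in induced cells, with folds of 2.59 and 2.50, against 4.48 and 6.92 in uninduced cells. No protein-coding neighbour lay within 50 kb of GATA6, but non-coding genes did. GATA6-AS1 (22166898 to 22168968) lies inside the regions of both marks at the GATA6 start. LOC105372018 begins at 22242932, inside the nearer distal H3K27ac region.

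GATA5 had no region of either mark in the gene in any list. GATA5, at 62463497 to 62475995 on chromosome 20, encodes a GATA factor known from heart and endoderm. The strongest H3K27ac in its window lay at the end of RBBP8NL, with a fold of 36.1 in induced cells (62426205 to 62428978, −log10 q 224.8) and 25.2 in uninduced cells (62426163 to 62431551, −log10 q 231.5). The nearest above the gene, 12.8 kb away in both lists, had a fold of 13.1 in induced cells (62488802 to 62490548) and 13.5 in uninduced cells (62488805 to 62490380). Pol II covered 0.411 kb in induced cells and 1.09 kb in uninduced cells where GATA5 was the nearest protein-coding gene. Where RBBP8NL was nearer, Pol II covered 7.83 kb in induced cells in several pieces, and 10.0 kb in uninduced cells, mostly within a 13.5 kb region (62406785 to 62420269) that runs past the 50 kb limit.

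**Figure D4:**
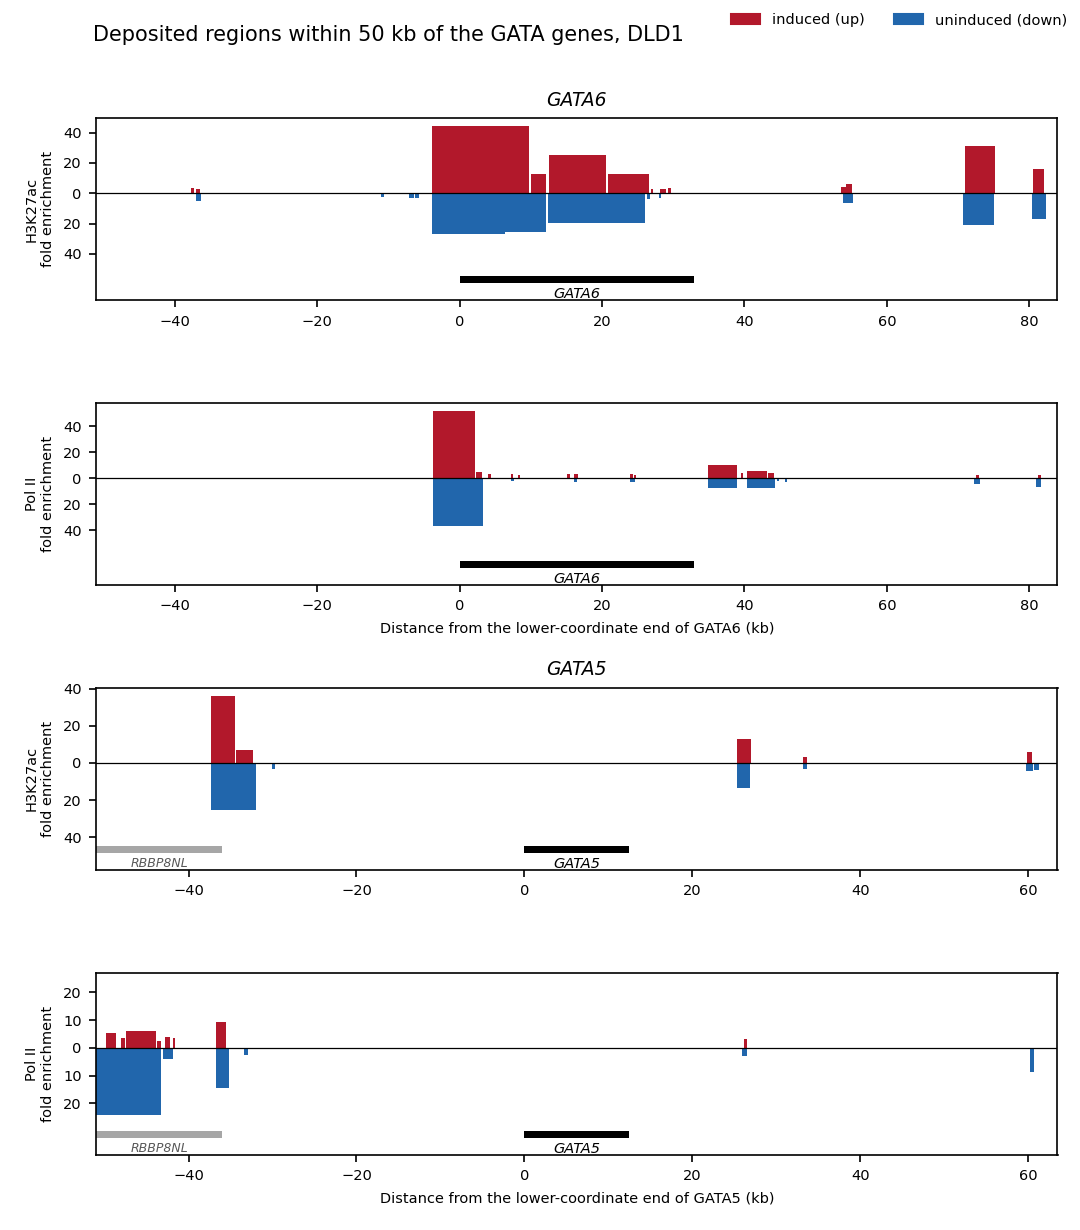
Deposited regions around GATA5 and GATA6, with distance from the lower-coordinate end of the gene in kb along the x axis and fold enrichment as bar height, induced cells up in red and uninduced cells down in blue. H3K27ac runs across most of GATA6, with the tallest bars of both marks at its start. GATA5 has no bar over the gene, and the uninduced Pol II region at RBBP8NL runs past the left edge.

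FOXA1 lay in the widest H3K27ac stretch of the 8 once gaps of up to 1 kb were joined. As listed, its widest region in uninduced cells (12 kb) was narrower than that of CDX2 (20.7 kb) and GATA6 (13.6 kb). FOXA1, at 37589552 to 37595249 on chromosome 14, had 19 H3K27ac regions in induced cells and 17 in uninduced cells, which covered 55.4 kb in induced cells and 54.5 kb in uninduced cells. Within 50 kb of the gene, 52.4% of all bases were covered in induced cells and 51.6% in uninduced cells, more than at 99.7% of protein-coding genes in either list. Of these bases, 32.3 kb in induced cells and 32.0 kb in uninduced cells lay in regions with no other protein-coding gene nearer. Another protein-coding gene was nearer for 23.1 kb in induced cells and 22.5 kb in uninduced cells. The region over the gene spanned 27 kb in induced cells (37574804 to 37601836, fold 43.8, −log10 q 289.8). In uninduced cells the same stretch was listed as 3 regions of 12, 2.98 and 11.7 kb, with folds of 26.2, 23 and 28.5. With gaps of up to 1 kb joined, the domain spanned 59.3 kb in induced cells and 57.5 kb in uninduced cells. TTC6 lies 0.38 kb from FOXA1, and the joined domain ran into TTC6 on one side and MIPOL1 on the other.

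Pol II at FOXA1 formed a chain of regions that passed through the gene on both sides. Beside the start, Pol II spanned 5.42 kb in induced cells (37594037 to 37599454, fold 27, −log10 q 159.4) and 8.87 kb in uninduced cells (37594001 to 37602870, fold 27.6, −log10 q 234.4). In induced cells the outer part of that stretch was listed as 3 more regions with folds of 2.68 to 5.58. The summit with the highest −log10 q of both lay beyond the FOXA1 start, inside TTC6, at 37598481 in induced cells and 37598488 in uninduced cells. At the 3′ end and past it, 2 regions had folds of 21.7 and 22.3 in induced cells and 17.3 and 16.5 in uninduced cells. Pol II covered 88.9% of the gene in induced cells and 87.7% in uninduced cells.

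FOXA2 was marked over a short stretch. FOXA2, at 22580998 to 22585490 on chromosome 20, had an H3K27ac region over its upper end with a fold of 33.6 in induced cells (22583151 to 22586168, −log10 q 209.2) and 25.7 in uninduced cells (22583186 to 22586380, −log10 q 213.0). Pol II there had a fold of 28.3 in induced cells (22583924 to 22585626, −log10 q 156.9) and 24.9 in uninduced cells (22583972 to 22585841, −log10 q 204.3). At the lower end, Pol II was listed over 0.897 kb just outside the gene in induced cells (fold 4.98) and over 1.70 kb in uninduced cells (fold 8.52). A distal H3K27ac region 15.3 kb above the gene in both lists had a fold of 13.9 in induced cells and 9.62 in uninduced cells. Regions covered 3.0 kb with Pol II in induced cells and 4.24 kb in uninduced cells, the lowest ratio of the 8.

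**Figure D5:**
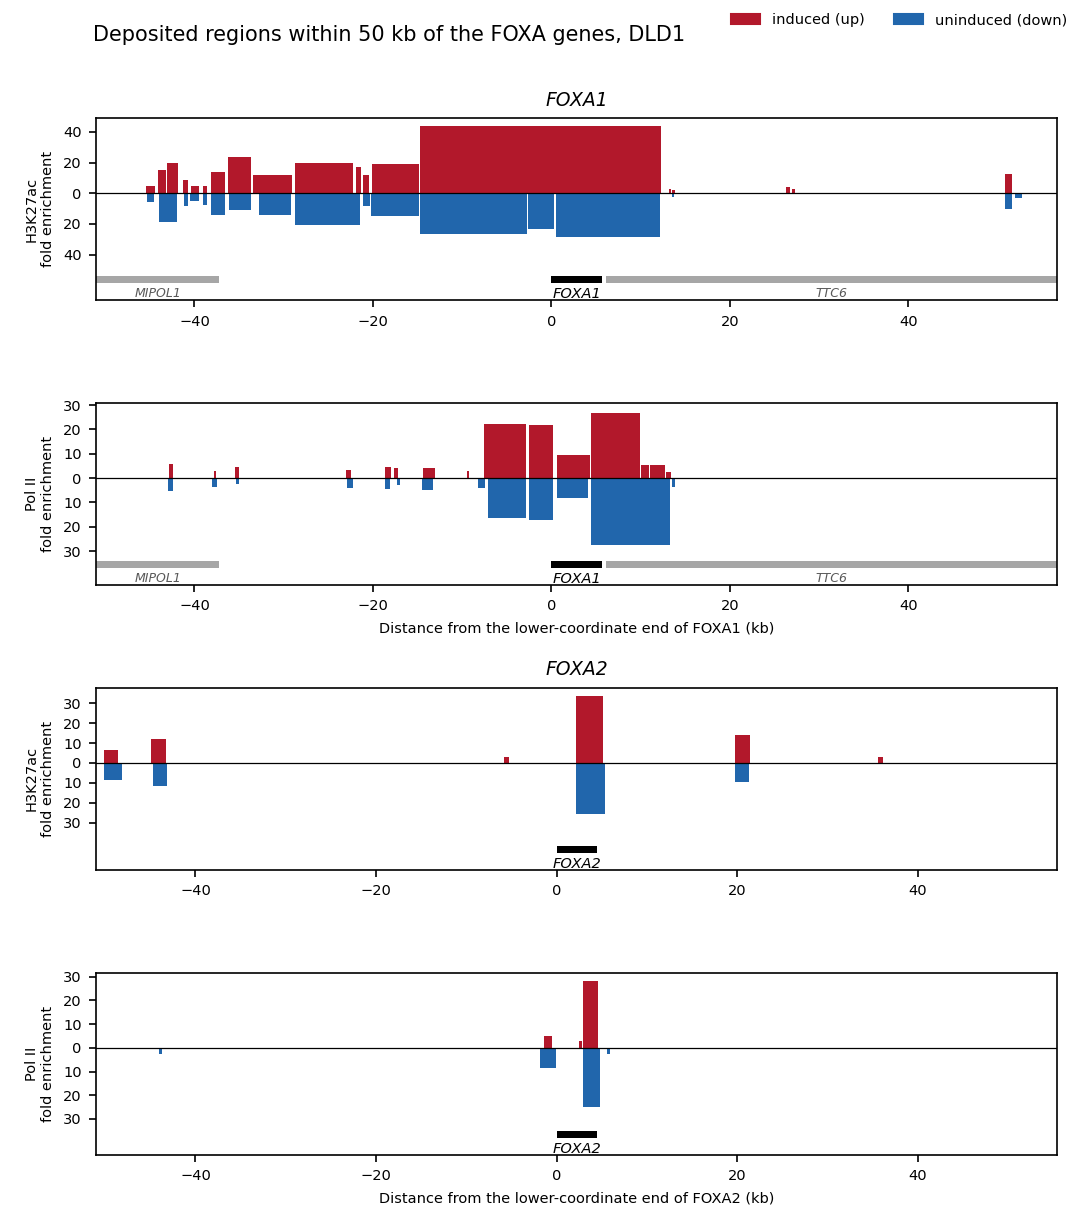
Deposited regions around FOXA1 and FOXA2, with distance from the lower-coordinate end of the gene in kb along the x axis and fold enrichment as bar height, induced cells up in red and uninduced cells down in blue. FOXA1 lies in a chain of H3K27ac regions that stretches to its left. The stretch of the induced block over the gene is listed as 3 blocks in uninduced cells, and 2 of these overlap the gene. FOXA2 has 1 main place for both marks.

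The share of the gene and its flanks under H3K27ac ran in the same order from FOXA1 through CDX2, GATA6, CDX1 and HNF4A in both lists. Among all protein-coding genes that share stood at percentile 99.7 for FOXA1 in both lists. It stood at 96.7 in induced cells and 97.2 in uninduced cells for CDX2, and at 95.8 in induced cells and 96.2 in uninduced cells for GATA6. CDX1 stood at 91.1 in induced cells and 87.2 in uninduced cells, and HNF4A at 81.5 in induced cells and 78.1 in uninduced cells. FOXA2 (58.8 in induced cells, 54.6 in uninduced cells) and GATA5 (51 in induced cells, 57.0 in uninduced cells) changed places between the lists near the middle of all genes. HNF4G was at 12.9 in both. These shares include bases nearer to other genes at FOXA1, CDX2, CDX1, HNF4A and GATA5, and no percentile was computed without them.

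An H3K27ac region of 6 kb or more lay within 50 kb of 3 genes in each list, CDX2, GATA6 and FOXA1, where 18.1% of all genes had one in induced cells and 18.5% in uninduced cells. A Pol II region of 6 kb or more lay near none of the 8 in induced cells and near 5 in uninduced cells (CDX2, HNF4A, GATA5, GATA6 and FOXA1), where 13.0% of all genes had one in induced cells and 18.6% in uninduced cells. That contrast rested on how regions were split: after gaps of up to 1 kb were joined, the counts were 4 genes in induced cells and 5 in uninduced cells, where 25.7% of all genes had one in induced cells and 30.9% in uninduced cells. Counting only regions that overlap the gene itself gave 0 genes in induced cells and 3 in uninduced cells, where 5.41% of all genes had one in induced cells and 8.47% in uninduced cells. Regions that faced 2 or more partners in the other list numbered 2 of 75 for Pol II in induced cells (2.67%) and 11 of 64 in uninduced cells (17.2%), where the whole lists had 5.16% in induced cells and 10.6% in uninduced cells. For H3K27ac they numbered 6 of 84 in induced cells (7.14%) and 10 of 74 in uninduced cells (13.5%), where the lists had 5.08% in induced cells and 8.94% in uninduced cells.

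In pairs of regions that faced one another alone, the places hardly moved. The summit with the highest −log10 q shifted by a median of 41 bp in 44 H3K27ac pairs near the 8 genes, against 35 bp in all such pairs, and by 34 bp in 39 Pol II pairs, against 39 bp. The Pol II region was narrower in induced cells in 29 of 39 pairs (74.4%), and in 75.1% of all pairs of the lists. The H3K27ac region was narrower in induced cells in 19 of 44 pairs (43.2%), and in 53.0% of all pairs.

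H3K27ac lay over part of the gene for 7 of the 8 in both lists, GATA5 being the exception, where 73.9% of all genes had it in induced cells and 74.2% in uninduced cells. Pol II did so for 6 of the 8 in both lists, where 70.3% of all genes had it in induced cells and 71.9% in uninduced cells. The part of the gene under Pol II was larger in induced cells for 5 of the 6 genes with any Pol II in the gene, a direction that 20.5% of covered genes had. HNF4G was the exception, at 0.434% in induced cells and 0.623% in uninduced cells. The share was 43.9% in induced cells and 33.8% in uninduced cells for FOXA2, 16.0% in induced cells and 14.4% in uninduced cells for GATA6, and 7.22% in induced cells and 6.67% in uninduced cells for HNF4A. This measure was chosen after values were seen, and it depended on weak regions. With regions under a −log10 q of 5 left out, the share was larger in induced cells for 3 genes and smaller for 3, where 21.2% of genes were larger.

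Most Pol II regions lay on H3K27ac, and fewer of the H3K27ac regions lay on Pol II. Of the Pol II regions near the 8 genes, 58 of 75 in induced cells (77.3%) and 51 of 64 in uninduced cells (79.7%) lay on an H3K27ac region of the same condition, where both whole lists had 62.3%. Of the H3K27ac regions, 34 of 84 in induced cells (40.5%) and 39 of 74 in uninduced cells (52.7%) lay on a Pol II region, where the whole lists had 33.9% in induced cells and 39.8% in uninduced cells.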

How the data were processed

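ChIP-seq for H3K27ac and Pol II was read from 4 peak lists of DLD1 cells, 1 per mark and condition, which the labels name for 2 samples each. Per the labels' protocols, each library was sequenced to 40 to 55M single-end reads, 75 bp long. Per the submitters' processing notes, the tools, in no stated order, included deepTools 3.5.0, MACS2 2.1.1.20160309, SAMtools 1.10 and BWA 0.7.17-r1188, with builds hg19 and hg38 named. Positions fit GRCh38, since chromosome 17 regions reach 83228308. The deposited lists give each summit a score, a fold enrichment (a ratio) and a −log10 q-value made by the authors' caller, with −log10 q at or above 1.3. No source used here gives caller settings or says whether samples were pooled first. Summit lists repeated the peak lists.

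Summits sharing the same start and end were taken as 1 region, and only chromosomes 1 to 22 and X were used, leaving out 0.374 to 0.603% of entries. Genes came from RefSeq (GRCh38). A partner is a region of the other condition sharing at least 1 bp, and covered bases were counted within the gene and 50 kb on both sides. With no sample-level values no test was run, and shares carry Wilson 95% intervals. A ratio past 1.5-fold either way was counted beside the same count over all genes. Named genes were always the 8 members, and from 2 lists (other gut transcription factors, and genes known as CDX2 or HNF4 targets) up to 4 genes per mark with the largest ratios past 1.5-fold. For each member the region at its start or end, its widest and strongest regions and the strongest unpaired ones were described. The members and lists were chosen with earlier results of these data known. One marker gene of the chosen lists is not reported here. The scripts were tested on simulated regions, and overlaps were checked with bedtools 2.31.1. Python 3.11.15, pandas 2.3.3 and matplotlib 3.10.9 were used.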

Additional observations from a re-analysis of the deposited data

How the results depend on the processing

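Of 150 comparisons of a result with another setting, 135 stayed within the reported interval or within 1.5 times the reported value, and 15 moved. Of the 150, 80 were ratios of single genes judged by the 1.5-fold limit, and none of those moved. That limit is wide for ratios near 1, and some of them changed direction within it, as given above. With regions under a −log10 q of 5 left out, the share of induced regions with a partner was 95.2% for H3K27ac and 95.8% for Pol II. With regions within 1 kb counted as partners, it was 92.9% for H3K27ac and 97.3% for Pol II in induced cells, and 90.6% for Pol II in uninduced cells. Genes past 1.5-fold in Pol II bases numbered 2 at a −log10 q of at least 5 (HNF4A, 0.640, and GATA5, 0.655), 1 with a window of 100 kb (HNF4A, 0.659) and 1 with gaps of up to 1 kb joined (FOXA2, 0.618), against 0 as reported. The shares of all genes past 1.5-fold at these settings were 20.1%, 15.2% and 19.5%. Joining gaps was added to this result after values were seen. With gaps of 1 kb joined, genes with an H3K27ac domain of 6 kb or more numbered 5 in induced cells and 3 in uninduced cells. As reported, they numbered 3 in each. At the joined setting, 28.2% of all genes had one in induced cells and 28.4% in uninduced cells. With the wider gap commonly used to stitch enhancers, they numbered 7 in induced and 7 in uninduced cells. The share of all genes was not computed for that gap. The causes were not tested beyond what joining regions does by construction.

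The lists carry no counts or sample-level signal, so depth per region is unknown, and a region absent from a list was under its caller's threshold, not shown to lack the mark. Doxycycline itself cannot be told apart from the transgene here. No paired analysis was possible because each list stands for both samples of a group.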

Other observations

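Other transcription factors of endoderm and gut had median ratios close to those of all genes. Of 18 such genes, 11 had fewer H3K27ac bases within 50 kb in induced cells and 7 had more, with a median ratio of 0.968, where 55.9% of all genes had fewer and the median was 0.987. Of the 2 past 1.5-fold, NR5A2, a nuclear receptor of gut and pancreas, had 7.91 kb in induced cells and 5.14 kb in uninduced cells. The other was SOX2, a factor of foregut and stem cells, with 0.856 kb in induced cells and 1.71 kb in uninduced cells. Among all genes, 1.58% had more H3K27ac bases past 1.5-fold and 3.74% had fewer. For Pol II, 17 of 18 had fewer bases in induced cells and 1 had more, with a median ratio of 0.826, where 92.2% of all genes had fewer and the median was 0.829. Past 1.5-fold were MAF (0.479), PITX1 (0.566), CREB3L3 (0.617) and SOX2, which was listed at 0 kb in induced cells and 0.407 kb in uninduced cells. These are 4 of 18 genes, where 16.9% of all genes had fewer bases past 1.5-fold.

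Among 20 genes known as targets of CDX2 or HNF4, 19 had H3K27ac bases and 13 of those had more in induced cells, with a median ratio of 1.08, where 44.1% of all genes had more and the median was 0.987. APOA1 and APOA4, both among the 13, are neighbours whose windows share regions. With 19 genes and no other setting run for this list, the count is not read as a difference from that share. Past 1.5-fold, MEP1A, a brush border protease, had 0.985 kb in induced cells and 1.54 kb in uninduced cells. HEPH, a ferroxidase of iron transport, had 0.767 kb in induced cells and was listed at 0 in uninduced cells. Among all genes, 3.74% had fewer past 1.5-fold and 1.58% had more. The regions were weak, with a −log10 q of at most 6.09 in induced cells and 9.46 in uninduced cells at MEP1A, and 6.92 in induced cells at HEPH. For Pol II, 17 of the 18 with bases had fewer in induced cells, with a median ratio of 0.754, where 92.2% of all genes had fewer and the median was 0.829. CLDN2, a claudin of leaky tight junctions, had 2.07 kb in induced cells and 5.0 kb in uninduced cells. CDH17, an intestinal cadherin, had 5.64 kb in induced cells and 8.82 kb in uninduced cells. Of the 5 past 1.5-fold with fewer bases, a difference that 16.9% of all genes had, MEP1A was listed at 0 kb in induced cells and 0.271 kb in uninduced cells. HEPH was the 1 gene with more, at a ratio of 1.61, a difference that 0.532% of all genes had. It rested on 0.594 kb in induced cells and 0.369 kb in uninduced cells.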
